A study of Ambystoma mexicanum with 6 samples.

Results

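The 143 genes described here had shorter transcripts in the regenerating than in the uninjured retina of Ambystoma mexicanum, the axolotl, a salamander able to regrow this tissue. They were chosen by the length that Salmon, the program used to quantify the reads, gives each gene in each library. That length is the mean over the gene's transcripts, weighted by their abundance in the library, so it moves when a gene's reads shift between long and short transcripts. Members had at least 100 estimated reads in each of the 6 libraries, a mean log2 length at least 0.5 lower in the regenerating libraries, and every regenerating length below every uninjured length. They are 143 of 12981 genes with at least 100 reads in each library, or 1.10%, and of 99088 genes in the files. Lengths and the read minimum chose the members, so lengths are described with no test.

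Retinas came from 12 adult leucistic (pale-skinned) axolotls. The uninjured retinas were taken from left eyes, and retinas that had regrown for 27 days after retinectomy, the surgical removal of the retina, were taken from the same animals. Each group consists of 3 pools of 4 retinas, with the same animals in pools of the same number. The SDs given are spreads over such pools, not over single animals. The SEs come from a model fitted to all libraries, without the pairing by animal. The libraries held 29.4 to 37.4 M estimated reads (M for 1000 times 1000). The files give identifiers beginning with AMEX60DD and pair them with no gene names. None (0) of the 143 identifiers was in the RefSeq gene table used, so neither the roles of these genes nor the markers of retinal cell types could be read. Genes are therefore called by their rank in the size of the length shift, with rank 1 for the largest, and 4 by identifier.

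A gene can give rise to transcripts of different length through alternative start sites, alternative splicing or alternative sites of polyadenylation, at which the end of the transcript is cut and its tail added. In vertebrates, neurons are known for long 3′ untranslated regions, and proliferating cells for short ones. The retina is built of neurons and glia, and its regrowth in salamanders draws on dividing cells. In whole tissue, a change of transcript use within cells and a change in the mix of cells cannot be told apart.

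Pool 1 of each group stood apart from pools 2 and 3 of that group in the lengths of these genes. Uninjured pool 1 stood apart in reads over all genes compared as well. The median member length was 6614 bases in uninjured pool 1, against 7185 and 7311 bases in uninjured pools 2 and 3. In the regenerating pools the median was 3958, 4604 and 4815 bases. Both sets of 3 therefore had their shortest median in pool 1, and the highest regenerating median lay below the lowest uninjured one. The members ranged in length from 1314 to 36701 bases in the uninjured retina (geometric mean of 3 pools) and from 895 to 21629 bases in the regenerating retina.

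**Figure D1:**
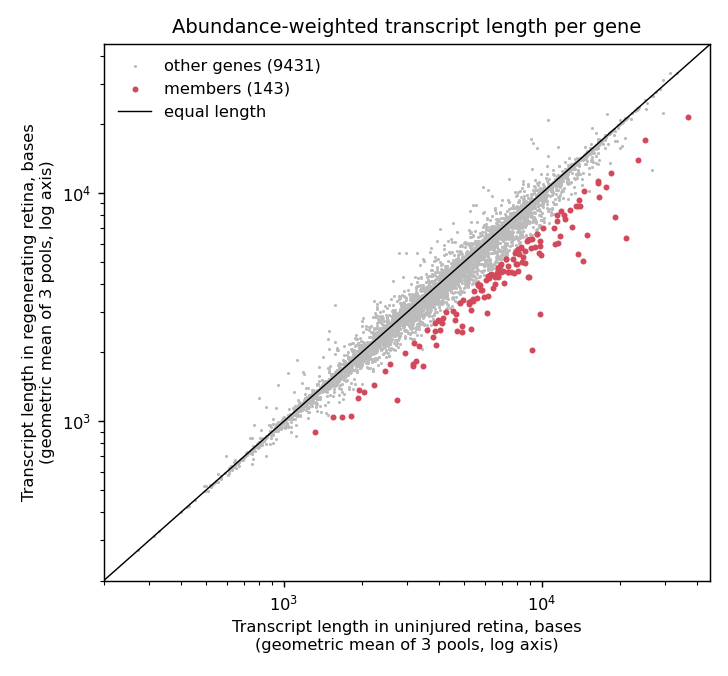
Transcript length of each gene in uninjured (x axis) and regenerating retina (y axis), as geometric means of 3 pools in bases on log axes, for 9574 genes with at least 100 reads in each library and a length that differed between libraries. The 143 members (red) lie below the line of equal length because they were chosen so, with uninjured lengths of 1314 to 36701 bases.

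The shift was moderate in most members and large in a few. The median log2 shift was -0.63, which is a length 1.55-fold greater in the uninjured retina, and 80% of members lay between -0.93 and -0.51. Of the 143 genes, 39 had a shift of -0.75 or beyond, 12 of -1 or beyond, 4 of -1.5 or beyond and 1 of -2 or beyond. Over all 9574 genes with several lengths and at least 100 reads, the median shift was -0.01. Large shifts in the other direction were fewer, since 37 of the 12981 genes (0.285%) were longer by at least 0.5 with no overlap of the groups. With no limit on size, 2788 genes (21.5%) were shorter and 963 (7.42%) longer in every regenerating pool than in every uninjured one. Of the 12981 genes, 3407 had the same length in all libraries to within 0.5 bases. Such genes cannot reach a log2 shift of 0.5, and the shares of the 12981 genes include them.

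The thresholds cut through a continuous range. The member nearest to the limit had a shift of -0.5002, and the nearest gene left out had -0.4993. The member with the fewest reads in a library had 103, and a gene that met the other demands was left out with 98. Another 7 genes with a shift of at least that size were left out because their groups overlapped. The narrowest gap among members lay between 9207 bases in the longest regenerating pool and 9346 bases in the shortest uninjured pool.

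**Figure D2:**
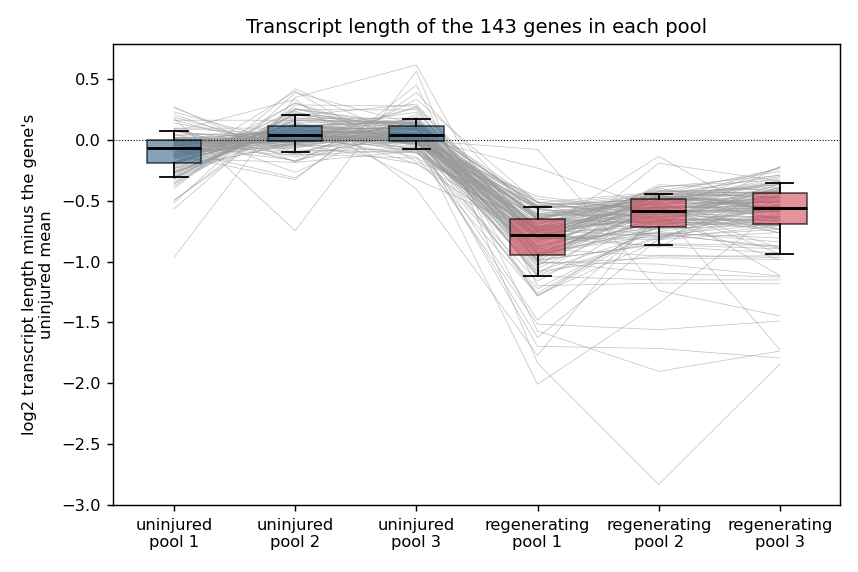
log2 transcript length of the 143 genes in each pool, minus each gene's mean over the uninjured pools. Boxes show the median and quartiles, whiskers the 10th and 90th percentiles, and grey lines single genes. All regenerating boxes lie below the uninjured ones, and pool 1 is the lowest within each group.

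The shift had the same sign in pools of the same animals for all 143 genes, which the rule itself fixes. Its size varied between pools. The median shift was -0.69 in the pools numbered 1, -0.64 in those numbered 2 and -0.62 in those numbered 3, and single values ran from -0.07 to -2.41. In 62 genes all 3 pairs reached -0.5. Against uninjured pools 2 and 3 alone the median was -0.67, and against uninjured pool 1 alone it was -0.55. On a scale from 0 at the mean of uninjured pools 2 and 3 to 1 at the regenerating mean, the length in uninjured pool 1 had a median position of 0.15 (10th to 90th percentile -0.13 to 0.58).

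Pool 1 held the shortest length of its group for most members. Among the uninjured pools, pool 1 was shortest in 93 of 143 members (65.0%), against 35.9% of the other genes with several lengths. Among the regenerating pools, pool 1 was shortest in 101 members (70.6%), against 52.1% of those other genes. Members were chosen on these same lengths, so the shares are a description. Without uninjured pool 1 the rule would take 190 genes, 140 of them among the 143. Without regenerating pool 1 it would take 113 genes, 102 of them among the 143.

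Lengths within a group were close together in some members and far apart in others. The ratio of the longest to the shortest pool had a median of 1.18 in the uninjured and 1.19 in the regenerating group. It stayed under 1.2 in both groups in 39 members. It exceeded 1.5 in the uninjured group in 14 members and in the regenerating group in 20. The lowest regenerating library of those 20 held a median of 174 reads, against 565 in the other members. Not all of the 20 had few reads, since ranks 24 and 117 had at least 2585 in each regenerating library. A gap of more than 0.5 on the log2 scale separated the shortest uninjured from the longest regenerating pool in 36 members, and a gap under 0.1 in 13.

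The gene of rank 1 had the largest shift and also scattered widely. It measured 10399, 5473 and 13585 bases in uninjured pools 1, 2 and 3, and 2574, 1290 and 2563 bases in the regenerating pools, a shift of -2.17. The groups did not overlap, but the uninjured pools differed among themselves by more than 2-fold, and regenerating pool 2 held only 104 reads. Rank 2 measured 19469, 16940 and 28998 bases in the uninjured and 7150, 5681 and 6376 bases in the regenerating pools. Its reads were even across the libraries, at 448 to 545.

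The genes of rank 3 and 4 stood out for tight lengths in both groups. Rank 3 is AMEX60DD052479, which measured 9679, 9784 and 10022 bases in the uninjured pools and 3034, 2996 and 2839 bases in the regenerating pools, a ratio of 3.33. Rank 4 is AMEX60DD000141, which measured 14510, 15155 and 13712 bases and then 5061, 4904 and 5150 bases, a ratio of 2.87. In both genes the difference between groups was far wider than the range within either group.

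Rank 5 was uneven in both groups, at 14544, 17439 and 10469 bases uninjured and 4061, 9375 and 4194 bases regenerating. Regenerating pool 2 came close to uninjured pool 3 there. Rank 7 measured 7658 bases in uninjured pool 1 but 19071 and 22936 bases in pools 2 and 3, and 6521, 6621 and 6593 bases in the regenerating pools. Its uninjured pool 1 was thus nearer to the regenerating pools than to the other uninjured ones. Rank 84 was listed at 18599 bases in all 3 uninjured pools and at 13071, 11756 and 12010 bases in the regenerating pools. Of the 143 members, 7 had uninjured lengths within 1% of each other, against 1 member in the regenerating pools. The other genes were not counted in this way. Reads can differ between the groups too, as in rank 84 with 2631 to 3516 uninjured and 189 to 424 regenerating reads.

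**Figure D3:**
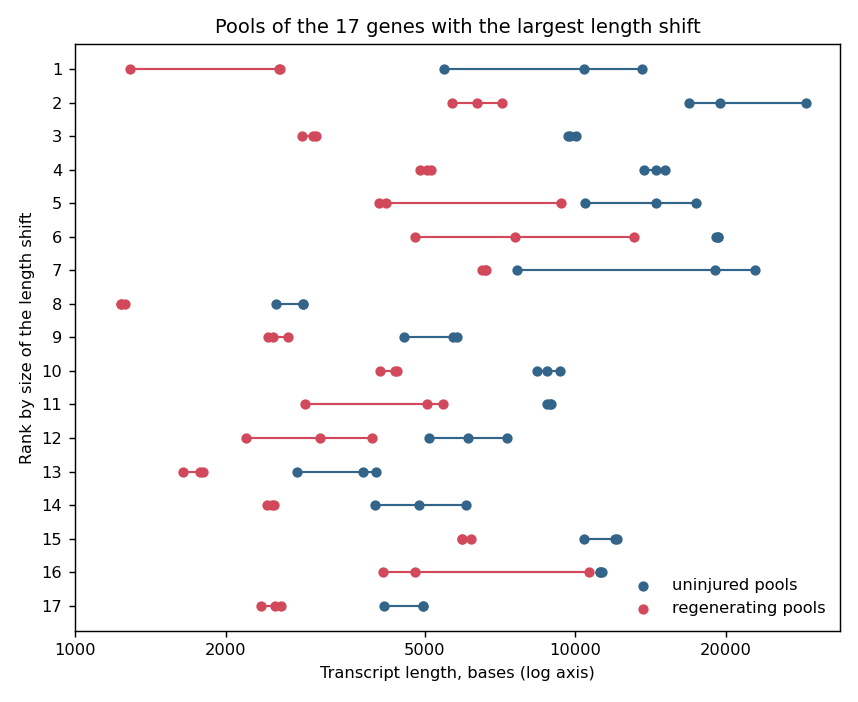
Transcript length in bases (log axis) in each uninjured pool (blue) and each regenerating pool (red) for the 17 genes with the largest shift, by rank. The pools of rank 3 and rank 4 are tight in both groups, while in ranks 5 and 16 a regenerating pool lies near the uninjured ones.

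The members can be set beside the other genes in length, abundance and identifiers. Most had long transcripts in the uninjured retina. Their median uninjured length was 6909 bases, against 3796 bases for the other genes with several lengths and at least 100 reads, and 123 of the 143 exceeded the median of all genes with several lengths. In the regenerating retina the medians were 4471 and 3715 bases, so the members were nearer to the other genes there. The uninjured lengths entered the rule, so this is a description. Their abundance was below that of the other genes, with a median of 10.8 TPM against 15.0 TPM (TPM counts transcripts per M transcripts, after division by length). Through that division, abundance in TPM is tied to the lengths as well. The reads in the lowest library had a median of 417 in members and 475 in those genes. Of the members, 3 carried identifiers beginning with AMEX60DDU (2.10%), against 804 of the 12981 genes (6.19%). No (0) members had consecutive identifier numbers.

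The correction from length to effective length, which takes account of fragment size, also differed between libraries. For genes listed with 1 length in all libraries it took off a median of 359, 303 and 304 bases in uninjured pools 1, 2 and 3. In the regenerating pools it took off 357, 393 and 391 bases. In these genes, none of them members, the amount was higher in regenerating pools 2 and 3 than in all uninjured pools. Regenerating pool 1 was close to uninjured pool 1. In the members the direction was the other one. The median taken off was 705, 616 and 640 bases in uninjured pools 1, 2 and 3, and 470, 548 and 540 bases in the regenerating pools. In each library the amount was larger in the members than in the genes with 1 length, and whether it depends on length was not tested. Members were chosen to be longer in the uninjured pools, so the direction seen in them is a description and not a separate result. The part of this correction in the length differences was not tested. With effective length in place of length, the rule would take 216 genes, 138 of them among the 143.

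The level of the members did not move in a single direction. On the scale of reads per gene, 28 of the 143 rose, 48 fell and 67 did not pass the threshold (edgeR quasi-likelihood test over 37844 genes, adjusted p under 0.05). Among all genes tested 20.4% were higher and 21.1% lower, or 41.6% in all. Among the 12981 genes with the same read minimum 28.9% were higher and 23.4% lower, against 19.6% and 33.6% of the members. In all, 53.1% of members were called, against 52.3% of those genes. Fewer cells of a type and less RNA per cell cannot be told apart in whole tissue. With uninjured pool 1 left out, 32 members were called higher and 60 lower. The share over all genes was not computed for that fit, so these counts are not read as a trait of the members.

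Reads per gene depend on transcript length, since a shorter transcript yields fewer fragments, so this scale is tied to the choice of the members. The median log2 change of reads was -0.22 over the members and 0.11 over the other 12838 genes with the same minimum. With each gene's effective length in each library as an offset, which turns reads into transcripts, the median was 0.51 over the members and 0.12 over the others. On that scale 56 members lay past the same threshold as higher and 24 as lower, against 29.1% and 22.2% of the genes with the same minimum and 20.2% and 20.8% of all genes tested. In all, 55.9% of members were past it, against 51.3% of the genes with the same minimum and 41.0% of all genes tested. Division by a length that was chosen to be shorter raises this change by construction. The values on the transcript scale are therefore a description with no test, its threshold serves only to sort the members, and nothing is read from its direction. Without uninjured pool 1 the transcript scale gave 62 higher and 28 lower, again with no share over all genes computed.

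**Figure D4:**
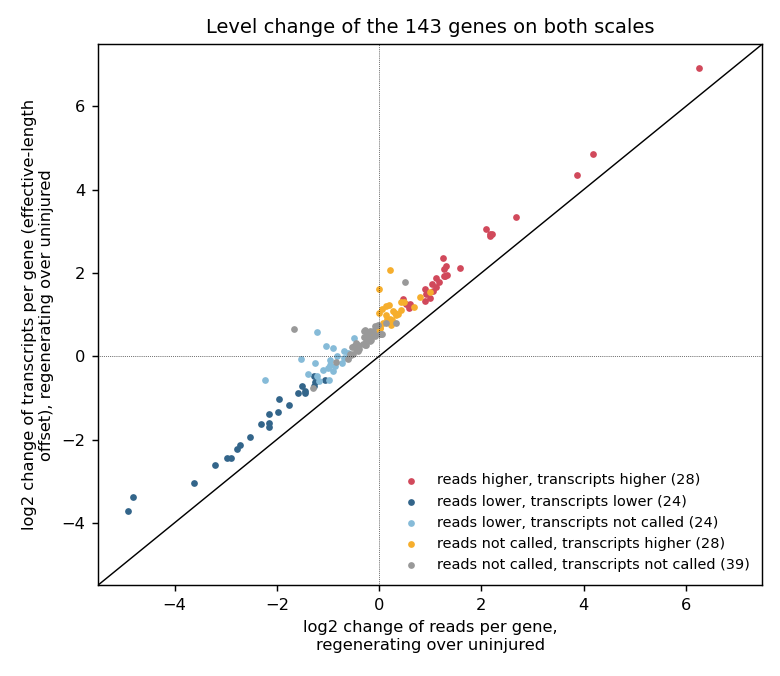
log2 change of the 143 genes, regenerating over uninjured, in reads (x axis) and in transcripts after an effective-length offset (y axis), coloured by the calls on both scales. The genes lie above the line of equal change, and no gene passed the threshold in opposite directions. The transcript scale divides by lengths that chose the genes.

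Both scales together sort the members into 5 classes. All 28 members that rose in reads were also past the threshold as higher in transcripts, which the division by the selected lengths favours. Of the 48 that fell in reads, 24 were past it as lower in transcripts and 24 were not past it. Of the 67 not called in reads, 28 were past it as higher in transcripts and 39 were not past it. No (0) member was past it in opposite directions. The shares of all genes in these classes were not computed, so the counts describe the members only. The median length shift was alike in all classes, at -0.66 to -0.59, but the larger shifts differed. Members lower in reads and not past the threshold in transcripts had a 10th percentile of -1.3. It was -0.89 in members higher on both scales, whose largest shift was -0.99, and -0.89 in members lower on both scales. Across the 143 genes, length shift and change of reads had a Pearson r of 0.17 and a Spearman rho of 0.02. These are across genes of the same libraries and serve as a description only.

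The 28 members that rose in reads had a median log2 change of 1.26 in reads and 1.93 in transcripts. By the rule for names, the first of them are AMEX60DD036819 and AMEX60DD022221, of rank 14 and 17. AMEX60DD036819 measured 3977, 6041 and 4866 bases in the uninjured and 2419, 2498 and 2476 bases in the regenerating pools. Its level was 8.44, 4.95 and 3.89 CPM (reads per M reads of a library, with scaling between libraries) in the uninjured and 28.3, 18.4 and 26.7 CPM in the regenerating pools. Every regenerating pool lay above every uninjured one, and the 4.24-fold rise had a log2 SE of 0.34 and an edgeR adjusted p of 0.00353. In transcripts it went from 2.34 ± 1.47 to 16.0 ± 3.61 TPM (SD, n = 3 each).

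AMEX60DD022221 measured 4968, 4140 and 4968 bases in the uninjured and 2359, 2577 and 2514 bases in the regenerating pools. Its level was 8.14, 6.08 and 5.78 CPM uninjured and 16.1, 15.4 and 16.2 CPM regenerating. The regenerating pools were nearly equal and all above the uninjured ones, with a 2.38-fold rise, a log2 SE of 0.19 and an edgeR adjusted p of 0.00262. In transcripts it went from 3.52 ± 0.67 to 15.0 ± 0.709 TPM (SD, n = 3 each).

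Larger rises were found among members with moderate shifts. The gene of rank 118 measured 7232, 5997 and 5899 bases uninjured and 3775, 4502 and 5003 bases regenerating. Its reads rose 76.3-fold, from 20.1, 7.76 and 7.27 CPM to 768, 675 and 1239.5 CPM (edgeR adjusted p = 0.000387). Shorter transcripts therefore came with a level that rose in each regenerating pool. Rank 53 rose 18.1-fold, from 7.30 ± 4.03 to 133 ± 8.38 CPM (SD, n = 3 each; edgeR adjusted p = 0.000472), at 8193, 8457 and 8663 bases uninjured and 5071, 5360 and 5348 bases regenerating. In both genes uninjured pool 1 held the highest uninjured level.

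The 24 members that fell in reads and were also lower past the threshold in transcripts had a median log2 change of -2.15 in reads and -1.5 in transcripts. The genes of rank 16 and 6, with the largest falls in reads, had few regenerating reads left to measure a length. The gene of rank 16 fell 30.1-fold, from 154 ± 26.1 to 5.10 ± 0.602 CPM (SD, n = 3 each; edgeR adjusted p = 3.8e-05). Its length was steady in the uninjured pools, at 11218, 11322 and 11231 bases, and scattered in the regenerating pools, at 10668, 4775 and 4130 bases from 131, 144 and 187 reads. Rank 6 fell 28.0-fold, from 128 ± 53.5 to 4.55 ± 0.455 CPM (SD, n = 3 each; edgeR adjusted p = 0.000243). It measured 19133, 19353 and 19355 bases uninjured and 4793, 7595 and 13143 bases regenerating, from 122, 126 and 163 reads. The shifts of both genes thus rest on regenerating lengths that differed by more than 2-fold.

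Other falls came with steady lengths. The gene of rank 8 measured 2517, 2861 and 2860 bases uninjured and 1261, 1235 and 1235 bases regenerating. Its regenerating lengths came from 117, 139 and 113 reads, about as few as in rank 6 and 16. Its reads fell 3.86-fold, from 15.9 ± 3.55 to 4.11 ± 0.559 CPM (SD, n = 3 each; edgeR adjusted p = 0.00100). Rank 64 measured 13779, 13785 and 13743 bases and then 8756, 8785 and 8710 bases, one of the tightest sets of lengths among the members. Its reads fell 7.48-fold, from 71.0 ± 14.1 to 9.49 ± 0.686 CPM (SD, n = 3 each; edgeR adjusted p = 0.000111).

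In the other 24 members whose reads fell, the transcript scale stayed short of the threshold, with median log2 changes of -0.96 in reads and -0.12 in transcripts. AMEX60DD000141 and AMEX60DD052479, the genes of rank 4 and 3, belong here. AMEX60DD000141 had 178, 159 and 146 CPM in the uninjured and 49.3, 53.3 and 65.5 CPM in the regenerating pools. The groups were well apart, with a 2.87-fold fall, a log2 SE of 0.17 and an edgeR adjusted p of 0.00075. Its transcripts measured 25.4, 21.4 and 21.7 TPM and then 15.3, 17.6 and 21.5 TPM. The groups overlapped only between 21.4 and 21.5 TPM, and TPM has no further scaling between libraries. The fit with the length offset, which has such scaling, gave this gene a log2 change of -0.06. The ratio of its lengths, 2.87, was as large as the fold of its reads.

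AMEX60DD052479 had 54.9, 126 and 109 CPM in the uninjured and 14.6, 22.3 and 24.9 CPM in the regenerating pools. The 4.69-fold fall exceeded the wide spread of the uninjured pools, with a log2 SE of 0.36 and an edgeR adjusted p of 0.00368. In transcripts it went from 21.3 ± 7.62 to 11.9 ± 3.80 TPM (SD, n = 3 each), and its groups overlapped on that scale. Uninjured pool 1 held the lowest uninjured level, at 12.9 TPM. The overlap came from that pool alone, beside 27.8 and 23.3 TPM in uninjured pools 2 and 3 and at most 15.3 TPM regenerating. The gene's edgeR adjusted p with the length offset was 0.228, and 0.0312 to 0.529 over the alternatives, so its class depended on the fit. The genes of rank 5, 7 and 13 were in the same class, at 2.31-fold, 1.86-fold and 2.37-fold falls in reads. For rank 7 this class depended on the fit too, with an edgeR adjusted p with the length offset of 0.606, and 0.0212 to 0.973 over the alternatives.

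**Figure D5:**
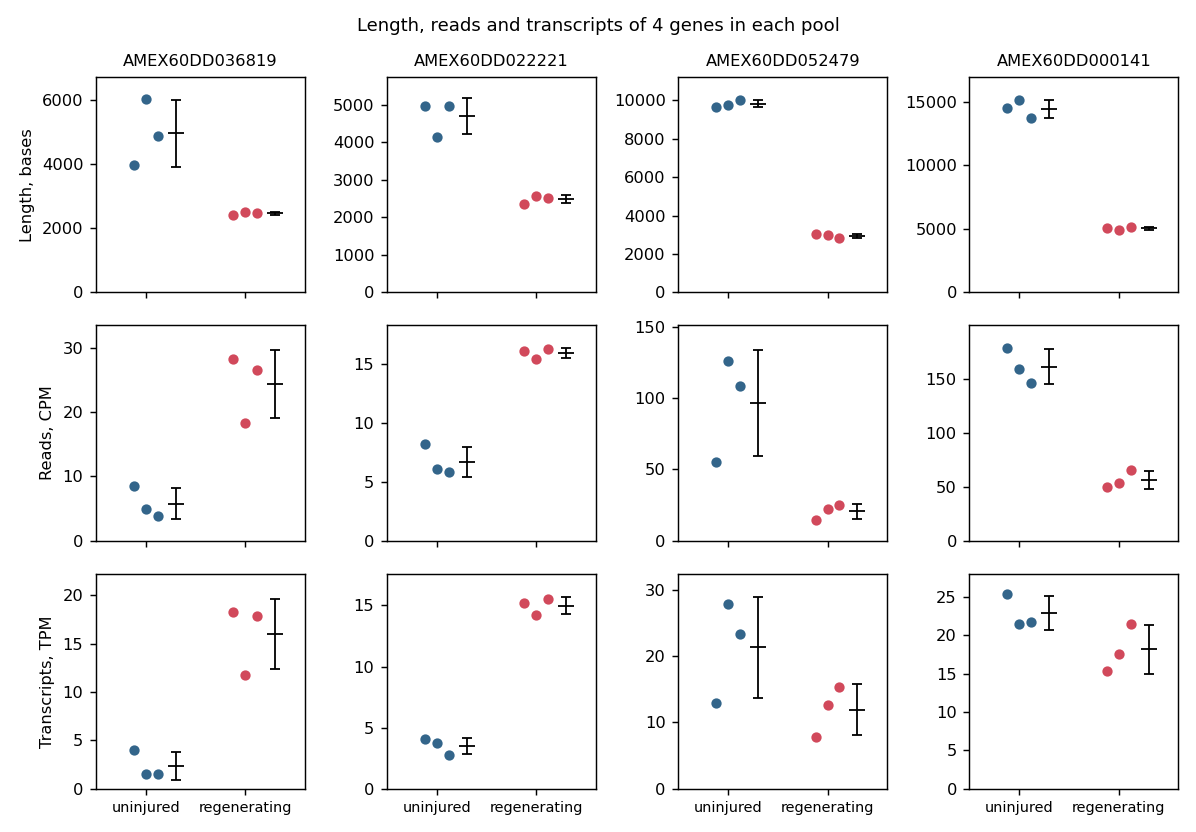
Transcript length in bases (top), reads in CPM (middle) and transcripts in TPM (bottom) of the 4 genes named by identifier, in each uninjured pool (blue) and regenerating pool (red), with mean ± SD (n = 3) beside the points. AMEX60DD036819 and AMEX60DD022221 are higher in the regenerating pools on both level scales, whereas AMEX60DD052479 and AMEX60DD000141 are lower in CPM and overlap between the groups in TPM.

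In 28 members the reads were not called and the transcript scale was past its threshold, which follows in part from the division by the selected lengths. Their median log2 change was 0.20 in reads, 1.02 in transcripts and -0.65 in length. The gene of rank 2 had 13.7, 14.2 and 13.7 CPM uninjured and 16.2, 16.7 and 15.2 CPM regenerating (edgeR adjusted p = 0.256). In transcripts it measured 1.69, 2.01 and 1.02 TPM and then 4.53, 6.36 and 5.31 TPM, beside a length that was 3.33-fold greater in the uninjured retina. Rank 15 was close to equal in reads, at 47.6 ± 1.21 and 47.4 ± 5.82 CPM (SD, n = 3 each; edgeR adjusted p = 0.982). Its lengths were 12139, 10445 and 12007 bases uninjured and 6187, 5937 and 5944 bases regenerating, and its transcripts went from 9.50 ± 0.843 to 16.2 ± 0.823 TPM. The genes of rank 9, 10 and 11 were in the same class.

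Among the 39 members past the threshold on neither scale was the gene of rank 1. It had 35.9, 7.00 and 14.1 CPM in the uninjured and 7.60, 3.44 and 6.85 CPM in the regenerating pools, so the groups overlapped (edgeR adjusted p = 0.0780). Its adjusted p was 0.0312 in an edgeR fit that paired the pools by animal (replicate block), 0.0231 in DESeq2 and 0.0315 in edgeR without uninjured pool 2 (range over alternatives 0.0231 to 0.405). In transcripts it measured 10.7, 4.06 and 2.74 TPM uninjured and 7.38, 7.70 and 7.59 TPM regenerating, so only uninjured pool 1 lay above the regenerating pools. With the length offset its log2 change was 0.66, against -1.67 in reads. The edgeR adjusted p with that offset was 0.315, and 0.00354 to 0.614 over the alternatives. The class of this gene thus depended on the fit. A level that misses the threshold is not shown to be unchanged.

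The 5 most abundant members by mean TPM over all 6 libraries had shift ranks of 77, 119, 21, 118 and 138. A gene abundant in only 1 group can enter by this mean, as rank 118 did with 3.38 ± 1.58 TPM uninjured and 335 ± 85.6 TPM regenerating (SD, n = 3 each). The highest, of rank 77, measured 1862, 2414 and 2450 bases uninjured and 1244, 1613 and 1488 bases regenerating. Its transcripts measured 168, 157 and 139 TPM in the uninjured and 552, 1600 and 808 TPM in the regenerating pools. The regenerating pools were all higher but differed among themselves by more than 2-fold (4.60-fold rise in reads, edgeR adjusted p = 0.0106). The next in abundance, of rank 119, went from 130 ± 60.3 to 318 ± 29.9 TPM (SD, n = 3 each). Its rise in reads had an edgeR adjusted p of 0.0158 and no longer passed without uninjured pool 2 (0.0659), uninjured pool 3 (0.0606) or regenerating pool 3 (0.0622; range over alternatives 0.000481 to 0.0659).

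The following genes in abundance, of rank 21, 118 and 138, differed in their levels. Rank 21 went from 81.2 ± 26.9 to 284 ± 31.8 TPM (SD, n = 3 each), with lengths of 2540, 3376 and 3708 bases uninjured and 1819, 1728 and 1665 bases regenerating. Rank 138 was not called in reads, at 414 ± 45.9 and 393 ± 81.0 CPM (SD, n = 3 each; edgeR adjusted p = 0.808). In transcripts it measured 123 ± 6.69 and 147 ± 9.91 TPM (SD, n = 3 each), beside a length shift of -0.50. Together the members took 0.693%, 0.710% and 0.722% of the reads of uninjured pools 1, 2 and 3, and 0.590%, 0.667% and 0.700% of those of the regenerating pools. Their share of transcripts was 0.244% to 0.272% in the uninjured and 0.393% to 0.484% in the regenerating pools, and this share is raised in the regenerating pools by the division by the lengths that chose the members.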

How the data were processed

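Per the submitters' processing notes, reads were trimmed with Trimmomatic 0.38 and quantified with Salmon 0.13.1; no build, annotation or strand setting is given in the sources used here. The deposited sample files hold estimated counts, TPM, and length and effective length per gene, per the file headers. The deposited series table holds a signal equal to TPM times the library's reads in M (within 1% for 100% of genes above 1 TPM), so it was not tested.

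Estimated counts were rounded and tested with edgeR 4.0.16 (R 4.3.3; filterByExpr at 10, TMM, robust quasi-likelihood, no block), with Benjamini-Hochberg adjustment over all genes. All 143 members were tested. SE is the log2 change over the square root of F. On simulated counts of 37844 genes it recovered 0% of 2-fold, 64% of 4-fold and 90% of 8-fold changes, with 11 false of 88 calls. Only 50 genes were changed at each fold there, whereas 41.6% of all genes tested were called in the data. The adjustment is stricter when few genes change, so these shares do not give the power in the data. A second fit had effective length as an offset. DESeq2 1.42.0 and limma 3.58.1, on log2(TPM + 0.5) above a mean of 0.5 TPM, were alternatives, beside other scalings, filters, a block and leaving out each library.

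Members and lists were chosen with earlier results of these data known. By the rule for names, the 2 risen and 2 fallen members of largest shift carry identifiers. Genes of rank 6 to 11, 13, 15, 16, 24, 53, 64, 84 and 117 were picked after their values were seen. The labels pair the pools by animal, and deviations of same-numbered pools correlated at -0.01 to 0.07. Uninjured pool 1 differed from uninjured pools 2 and 3 by 151 and 125 times the variance of read sampling. Uninjured pools 2 and 3 differed by 11.0 times that variance, and the regenerating pools by 28.6 to 66.2 times.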

Additional observations from a re-analysis of the deposited data

How the results depend on the processing

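The rule took 12 genes at a shift of -1 or beyond (median -1.24), 33 at 1000 reads in each library (median -0.54), and 216 with effective length. Leaving out 1 library gave 113 to 190 members, and a median shift of the 143 from -0.67 to -0.57. Members called higher (28) and lower (48) in reads became 56 and 24 with the effective-length offset, with the median log2 change turning from -0.22 to 0.51, since the offset divides by the shorter length. They became 41 and 29 with limma on log2(TPM + 0.5), with a median of 0.21, on a scale that moved the median of all genes by -0.26. Among single genes called on at least 1 scale, the log2 change of rank 5 turned to 0.59 and 0.27 on these scales and rank 15 to 1.05 and 0.74, while rank 7 turned to 0.20 and rank 138 to 0.54 with the offset. DESeq2, its size factors in edgeR, no filter and an adjusted p under 0.01 kept both counts within 1.5 times (19 to 28 and 38 to 50), and no called member was called in the opposite direction under any alternative. With pools paired by animal (replicate block) the counts were 26 and 49 in reads and 58 and 22 in transcripts, and of the single genes described only the call of rank 1 changed. Leaving out 1 library gave 20 to 32 and 39 to 60 in reads, a median of -0.25 to -0.18, and 43 to 62 and 18 to 28 in transcripts. Apart from the offset on all libraries, shares over all genes were not computed for these alternatives. Their counts describe the members only. The leave-one-out, block and limma runs on transcripts were chosen after seeing the data. The series table was not run, as its values are TPM rescaled. Lengths carry no depth of their own, and 33 members had under 200 reads in some library.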
